A study of Mus musculus with 2 samples.

Results

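The 10 genes followed here belong to the NOTCH pathway and were read across thymocyte stages. They are the receptors Notch1 and Notch3, their nuclear partners Rbpj and Maml1, and the targets Hes1, Heyl, Dtx1, Nrarp, Ptcra and Myl10. They were taken by name from the count tables, where all 10 of them were found among 27933 gene symbols. Single-cell RNA was read from mouse thymocytes, which are T cells still maturing in the thymus. The mutant library came from cells in which both copies of NMe carry changes at its GATA sites 1 and 2 (GS1+2), and it was set against 1 wild type library. NMe is a distant enhancer of the growth gene Myc that NOTCH1 and GATA3 bind in T cell precursors, and the alleles change the sites that GATA3 reads. The age, sex, strain and number of the mice are not given in the sources used here. With 1 library per genotype no test between genotypes exists, so each comparison is between these libraries. Intervals are at 95% and reflect counting error alone.

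NOTCH receptors are cut when a ligand on a stromal cell pulls on them, and the freed intracellular part joins the DNA-binding protein RBPJ and the coactivator MAML1 to switch on target genes. In the thymus this signal commits progenitors to the T lineage and, with the pre-T cell receptor, carries them through beta-selection. It is known to fall as cells start to express CD4 and CD8, and recombination genes such as Rag1 are used again for the T cell receptor alpha chain in these double-positive cells.

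RBPJ reads letters close to TGGGAA. RefSeq promoter windows (build GRCm38.p6, the genome called mm10, 250 bases before to 50 bases after a start) were matched for 8 of the 10 genes and none was used for Hes1 or Heyl. The 3 windows below belong to targets that are described at length further on. They are written along the gene, with TGGGAA or its reverse complement TTCCCA in capitals, and with the longer GTGGGAA or TTCCCAC in capitals where it holds the shorter one. The Ptcra window lies at chr17:46763663-46763962 on the minus strand, that of Myl10 at chr5:136692896-136693195 on the plus strand and that of Dtx1 at chr5:120711620-120711919 on the minus strand.
Ptcra: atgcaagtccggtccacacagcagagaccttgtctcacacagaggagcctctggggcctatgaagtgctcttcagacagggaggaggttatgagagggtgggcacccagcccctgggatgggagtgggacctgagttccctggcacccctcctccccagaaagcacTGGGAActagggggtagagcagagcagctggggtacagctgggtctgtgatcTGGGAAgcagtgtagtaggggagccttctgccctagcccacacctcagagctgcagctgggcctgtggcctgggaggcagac
Myl10: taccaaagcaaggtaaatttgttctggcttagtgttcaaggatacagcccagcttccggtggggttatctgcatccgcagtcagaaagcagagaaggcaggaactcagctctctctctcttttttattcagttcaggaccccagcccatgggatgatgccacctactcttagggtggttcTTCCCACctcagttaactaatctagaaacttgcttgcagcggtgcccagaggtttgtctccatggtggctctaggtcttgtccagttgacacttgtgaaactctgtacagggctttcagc
Dtx1: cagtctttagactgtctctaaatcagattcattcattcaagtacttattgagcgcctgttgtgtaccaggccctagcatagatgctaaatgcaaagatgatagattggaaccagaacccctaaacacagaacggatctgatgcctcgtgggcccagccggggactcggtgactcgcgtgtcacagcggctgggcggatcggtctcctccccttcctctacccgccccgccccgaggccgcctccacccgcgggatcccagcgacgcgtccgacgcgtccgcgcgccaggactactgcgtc
The start site is base 251 of each window. The Ptcra window held TGGGAA on the written strand at offsets -84 and -32 from the start, and the first Myl10 window held TTCCCAC with its core at offset -70. The third Myl10 window held TTCCCA at offset -107 and the second held no match. Rbpj, which is not a target here, also had matches. Its first window held TGGGAA at offset -149 and TTCCCA at -65, and its second held TTCCCA at -205. No match was found in the windows of Dtx1, Nrarp, Notch1, Notch3 and Maml1. Over all 32851 windows of this length, 25.6% held TGGGAA on either strand and 6.38% held GTGGGAA on either strand, so a match in a single window is common. These letters are a description of the windows and no binding was measured here.

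By the GENCODE annotation of this build, all 10 are protein-coding genes. Hes1 lies at chr16:30064384-30067796, Notch1 at chr2:26457903-26516663 and Notch3 at chr17:32120820-32166852. Dtx1 spans chr5:120680202-120711927, Ptcra chr17:46755663-46763712 and Myl10 chr5:136693146-136701094.

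The deposited values were unique molecular identifiers (UMIs), each standing for 1 captured RNA molecule. The mutant library held 6364506 UMIs in 1737 cell barcodes (median 2596), and the wild type library 6638880 UMIs in 1346 barcodes (median 3323.5). After filtering, 1726 mutant and 1338 wild type cells were kept, and 1 barcode sequence was shared by the libraries. Myc, the gene the enhancer serves, was at 23.3 CPM, which is UMIs scaled to a common total of 1e+06 UMIs per library or stage, in mutant cells and 45.3 CPM in wild type cells.

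Stages were set by marker UMIs outside the 10 genes, each cell going to the first gate it passed. Cells with at least 5 UMIs of B, antigen-presenting, macrophage, innate-like, erythroid or stromal markers were set aside as other lineage. Mature cells had at least 2 UMIs of a set of maturation markers, among them Ccr7, Klf2, S1pr1 and Ms4a4b, and none of Rag1 or Rag2. Post-selection cells had at least 3 UMIs of Itm2a, Cd69, Cd5 and Egr2 and did not cycle. In the remaining cells Cd8 was called on at 2 or more UMIs of Cd8a and Cd8b1, Rag on at 1 or more UMIs of Rag1 and Rag2, and cycling at 3 or more UMIs of 12 proliferation genes. Cd8-silent cells were split by a UMI of Il2ra, Kit, Hhex, Mpzl2 or Lyl1 into an early group and a group without early markers. Cd8-silent thus means under 2 UMIs, not none. A single Cd8a or Cd8b1 UMI was present in 17 of 121 mutant and 15 of 43 wild type early cells. Among Cd8-silent cells without early markers it was present in 60 of 172 mutant and 49 of 95 wild type cells.

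The stages were filled unevenly. Early Cd8-silent cells numbered 121 in mutant (7.01%, interval 5.85 to 8.32) and 43 in wild type (3.21%, 2.34 to 4.30). Cycling Cd8-on Rag-on cells numbered 116 in mutant (6.72%) and 433 in wild type (32.4%). Resting Cd8-on Rag-on cells numbered 369 in mutant (21.4%) and 245 in wild type (18.3%), and mature cells 458 (26.5%) and 199 (14.9%). Of the defining early markers, Il2ra carried most UMIs, at 1024 CPM in mutant early cells and 419 CPM in wild type early cells, while Kit had 4 and 3 UMIs and Hhex 1 and 1. The early gate was thus an Il2ra gate in practice, and Il2ra is itself counted among the genes that NOTCH regulates in T cells, so the early levels and ratios are not independent of the pathway. The gate had Cd3g at 2977 CPM in mutant early cells and 1082 CPM in wild type early cells, and the make-up of the gate was not matched between libraries. Markers of resting double-positive cells that set no gate summed to 4013 CPM in mutant and 3571 CPM in wild type resting Cd8-on Rag-on cells, the highest of these sums in either library.

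Over all cells the NOTCH genes stood higher in mutant. Of the 10 genes, 9 had at least 20 UMIs in both libraries together, and 5 of these (Notch1, Notch3, Hes1, Dtx1 and Myl10) were at least 2-fold higher in mutant, with 0 at least 2-fold lower. Among all 10719 genes with as many UMIs, 6.19% were at least 2-fold higher in mutant and 1.78% at least 2-fold lower, and their median log2 ratio of mutant over wild type was 0.13, against 1.14 for the 9. Heyl, a HES-related repressor, had too little RNA to place, with 7 UMIs in mutant and 0 in wild type cells. Against a floor of 3 UMIs in wild type it was 2.45-fold higher in mutant, and the exact lower limit of its log2 ratio was 0.595. Since early cells were a larger share of the mutant library, the values over all cells mix levels with stage make-up. The stages below narrow this but do not remove it, since cells within a gate can differ too.

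**Figure D1:**
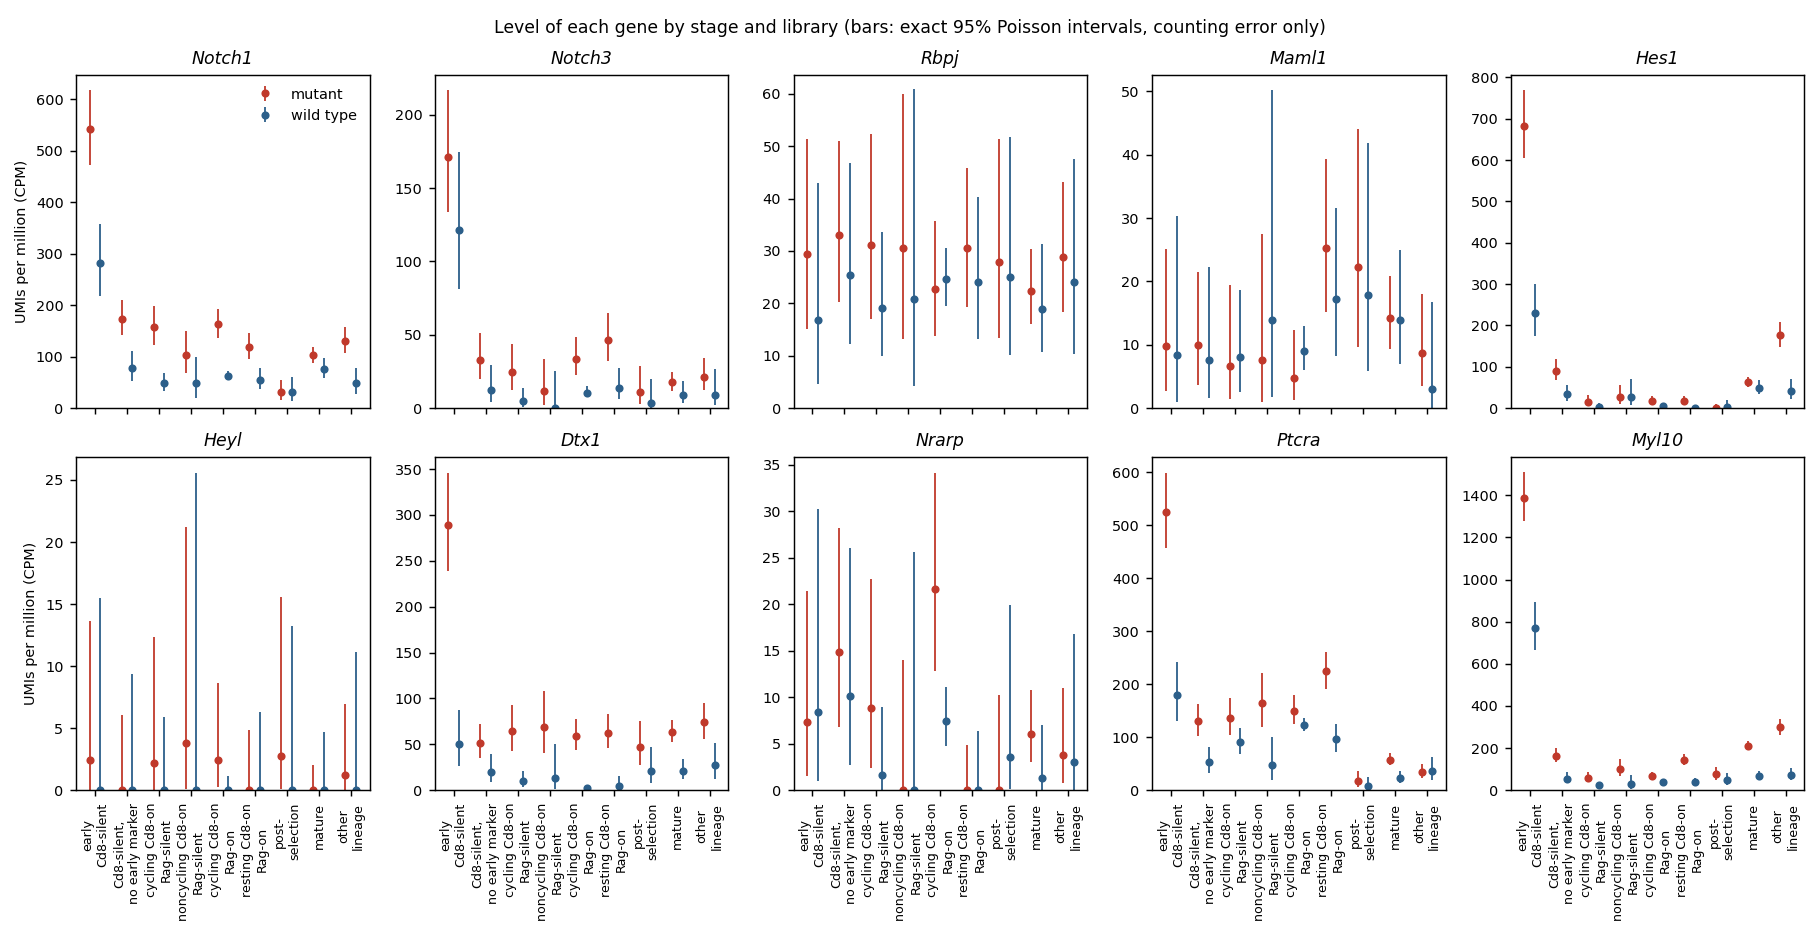
Level of each of the 10 genes in CPM (y axis, separate scale per gene) by stage (x axis), mutant in red and wild type in blue, with exact 95% Poisson intervals. Hes1, Myl10 and the receptors peaked in early Cd8-silent cells of both libraries, while mutant Dtx1 stayed between 47.4 and 73.9 CPM in all other stages.

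The receptors were highest in early cells, and UMIs of both were found after Cd8 and Rag came on. Notch1, the receptor needed for T lineage commitment, stood at 541 CPM in mutant early cells (472 to 618) and 281 CPM in wild type early cells (218 to 357), a log2 ratio of 0.95 (0.55 to 1.36). In cycling Cd8-on Rag-on cells it was at 163 CPM in mutant and 62.2 CPM in wild type, with a log2 ratio of 1.39 (1.07 to 1.71). In resting Cd8-on Rag-on cells it was at 119 CPM in mutant and 54.9 CPM in wild type, with a log2 ratio of 1.12 (0.52 to 1.75). The intervals of the libraries did not overlap in any of these 3 stages. In post-selection cells Notch1 was at 30.7 CPM in mutant (11 UMIs) and 32.3 CPM in wild type (9 UMIs), with a log2 ratio of -0.07 (-1.48 to 1.38).

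Notch3, a second receptor that NOTCH signalling itself is known to raise in thymocytes, was also highest in early cells. It stood at 171 CPM in mutant early cells and 122 CPM in wild type early cells, with overlapping intervals and a log2 ratio of 0.50 (-0.15 to 1.17). In resting Cd8-on Rag-on cells it was at 46.4 CPM in mutant (32.3 to 64.6) and 13.7 CPM in wild type (5.93 to 27.1). The log2 ratio was 1.67 (0.89 to 2.43) in cycling and 1.76 (0.62 to 3.08) in resting Cd8-on Rag-on cells. Both intervals overlapped that of early cells. Over all Cd8-on Rag-on cells the log2 ratio was 1.84 (1.26 to 2.44). That sum mixes cycling and resting cells in shares that differ between the libraries. Whether the ratio differs between stages was not tested, since each stage has 1 library per genotype.

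The nuclear partners differed less between the libraries. Rbpj, the DNA-binding partner, lay between 22.4 and 33.0 CPM in the 9 mutant stages and between 16.8 and 25.4 CPM in the 9 wild type stages, and the intervals of all stages overlapped. Its log2 ratio over all cells was 0.23 (-0.10 to 0.55). Maml1, the coactivator, had 79 UMIs in mutant and 68 in wild type cells, a log2 ratio of 0.28 (-0.20 to 0.77). Its level was not even over mutant stages: resting Cd8-on Rag-on cells held 25.2 CPM (15.2 to 39.4) and cycling Cd8-on Rag-on cells 4.80 CPM (1.31 to 12.3, 4 UMIs). In wild type the same stages held 17.2 CPM (10 UMIs) and 9.01 CPM (29 UMIs), with overlapping intervals. In no stage did the interval of either gene's ratio lie above or below 0.

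Hes1, the basic helix-loop-helix repressor that is the classic NOTCH target, was concentrated in early cells. It stood at 684 CPM in mutant early cells (606 to 769) and 231 CPM in wild type early cells (174 to 300), a log2 ratio of 1.57 (1.15 to 2.01). Cd8-silent cells without early markers held 90.8 CPM in mutant and 33.0 CPM in wild type. Cycling Cd8-on Rag-on cells held 16.8 CPM in mutant (14 UMIs) and 4.04 CPM in wild type (13 UMIs), far below the early cells of their own library. Resting Cd8-on Rag-on cells held 13 UMIs in mutant and 0 of 582506 UMIs in wild type. Against a floor of 3 UMIs in wild type this was 3.35-fold higher in mutant, and the exact lower limit of the log2 ratio was 1.24. Post-selection cells held 0 UMIs in mutant and 1 UMI in wild type.

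Of the 13 Hes1 UMIs of mutant resting cells, 8 came from a few cells that also carried early RNA. In the 23 mutant cells of this stage with a UMI of an early marker Hes1 was at 163 CPM (70.3 to 321), and in the other 346 it was at 7.09 CPM (2.30 to 16.6, 5 UMIs). The 3 wild type cells with such a UMI and the 242 without it held no Hes1 UMI. In noncycling Cd8-on cells with 4 or more Rag UMIs, Hes1 had 0 UMIs in 73 mutant cells and 0 UMIs in 65 wild type cells, which allows up to 23.7 CPM in mutant and 22.6 CPM in wild type.

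Dtx1, which encodes the ubiquitin ligase Deltex, had the largest ratios, among the genes with at least 20 UMIs, over all cells and in both Cd8-on Rag-on stages. Early cells held 289 CPM in mutant (239 to 346) and 50.3 CPM in wild type (26.0 to 87.9), a log2 ratio of 2.52 (1.66 to 3.52). Cycling Cd8-on Rag-silent cells held 64.5 CPM in mutant and 9.60 CPM in wild type, a log2 ratio of 2.75 (1.45 to 4.31). In cycling Cd8-on Rag-on cells it was at 58.8 CPM in mutant (49 UMIs in 116 cells) and 2.18 CPM in wild type (7 UMIs in 433 cells), with a log2 ratio of 4.76 (3.61 to 6.15). Resting Cd8-on Rag-on cells held 62.3 CPM in mutant (47 UMIs) and 5.15 CPM in wild type (3 UMIs), a log2 ratio of 3.60 (1.96 to 5.93).

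The course of Dtx1 over the stages also differed in shape. In mutant the 8 stages other than the early one lay between 47.4 and 73.9 CPM with overlapping intervals, so no order among them could be read. In wild type the lowest stage was the cycling Cd8-on Rag-on one (0.87 to 4.48 CPM), and mature cells stood above it at 21.5 CPM (12.5 to 34.5). No single cell set these values: the most Dtx1 UMIs in 1 cell was 5 in mutant and 2 in wild type.

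**Figure D2:**
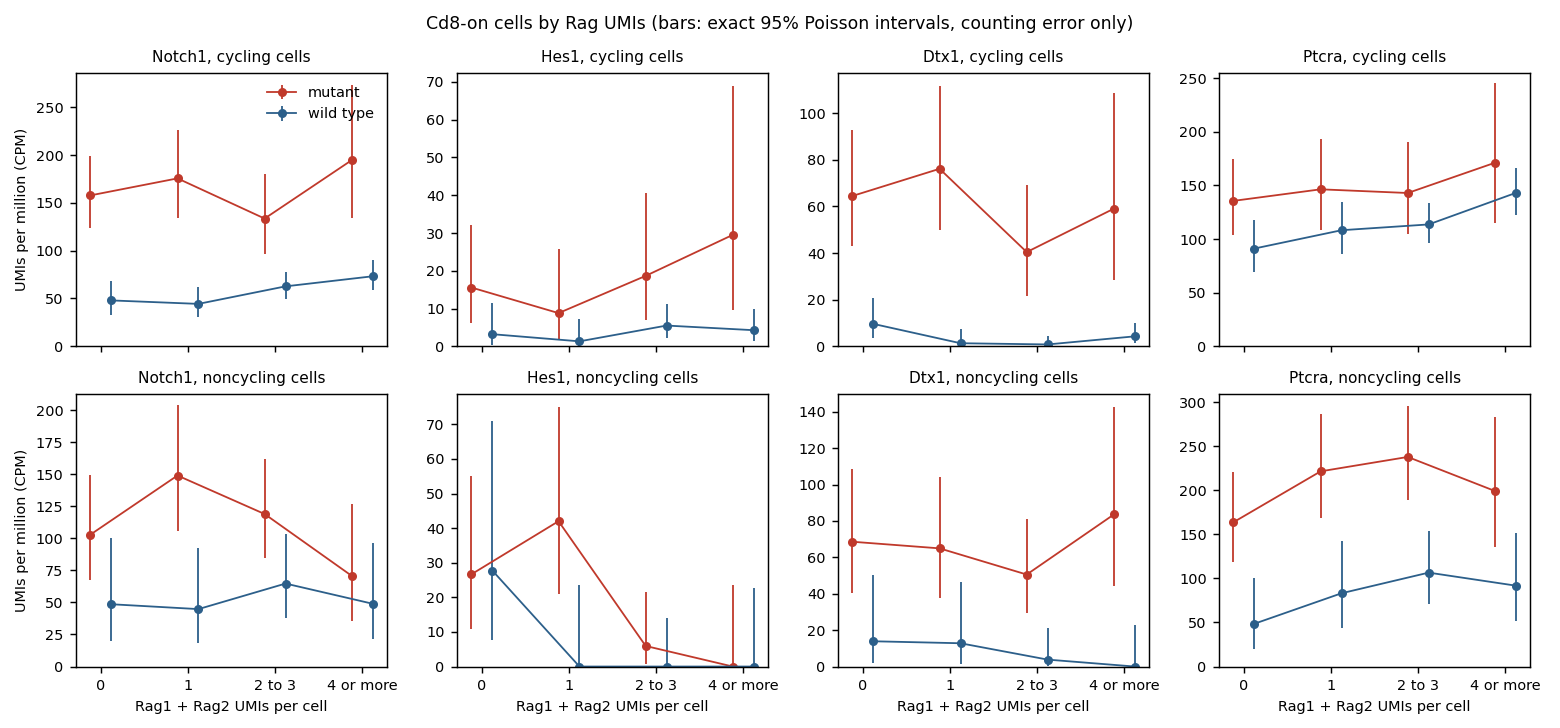
Cd8-on cells split by their Rag1 and Rag2 UMIs (x axis), cycling cells above and noncycling cells below, with levels in CPM (y axis) and exact 95% Poisson intervals, mutant in red and wild type in blue. Dtx1 in mutant stayed between 40.4 and 83.5 CPM at every Rag level, against 0 to 13.9 CPM in wild type, while Hes1 was at 0 in noncycling cells of both libraries with 4 or more Rag UMIs.

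Ptcra, the pre-T cell receptor alpha chain, was still carried after Cd8 and Rag came on, in both libraries. Early cells held 524 CPM in mutant (456 to 599) and 180 CPM in wild type (130 to 243), a log2 ratio of 1.54 (1.06 to 2.05). Cycling Cd8-on Rag-on cells held 150 CPM in mutant and 123 CPM in wild type, a log2 ratio of 0.29 (-0.02 to 0.58). Resting Cd8-on Rag-on cells held 224 CPM in mutant (192 to 261) and 96.1 CPM in wild type (72.6 to 125), a log2 ratio of 1.22 (0.78 to 1.68). The libraries thus overlapped in the cycling stage and lay apart in the resting one. In mutant the resting level stood above the cycling level (125 to 179 CPM), while in wild type these intervals overlapped. Post-selection cells held 16.7 CPM in mutant (6 UMIs) and 7.17 CPM in wild type (2 UMIs), the lowest value of any stage in each library.

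Nrarp, an ankyrin-repeat protein that damps NOTCH signalling, was scarce. It had 48 UMIs in mutant and 34 in wild type, of which cycling Cd8-on Rag-on cells held 18 in mutant and 24 in wild type. That stage was at 21.6 CPM in mutant and 7.46 CPM in wild type, a log2 ratio of 1.53 (0.57 to 2.48). Cd8-silent cells without early markers held 14.9 CPM in mutant (9 UMIs) and 10.2 CPM in wild type (4 UMIs), and mature cells 11 UMIs in mutant and 1 in wild type. Cycling Cd8-on Rag-silent cells held 4 UMIs in mutant and 1 in wild type. In early cells Nrarp was at 7.35 CPM in mutant (3 UMIs) and 8.39 CPM in wild type (2 UMIs), a log2 ratio of -0.19 (-3.32 to 3.39). Resting Cd8-on Rag-on cells of both libraries held 0 Nrarp UMIs, with upper limits of 4.89 CPM in mutant and 6.33 CPM in wild type.

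Myl10, a myosin regulatory light chain gene, had the most UMIs of the 10 in early cells. It stood at 1389 CPM in mutant (1277 to 1508) and 772 CPM in wild type (664 to 891), a log2 ratio of 0.85 (0.61 to 1.10). Cycling Cd8-on Rag-on cells held 67.2 CPM in mutant and 39.2 CPM in wild type. Resting Cd8-on Rag-on cells held 145 CPM in mutant (119 to 174) and 39.5 CPM in wild type (25.03 to 59.25), a log2 ratio of 1.87 (1.21 to 2.59). Mutant resting cells thus stood above mutant cycling cells, and the wild type stages overlapped.

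The counts of genes past 2-fold were as follows in each stage, each beside the share of all genes. In early Cd8-silent cells 3 of 6 with at least 20 UMIs were higher in mutant (Hes1, Dtx1 and Ptcra), against 12.8% of all genes, and 0 were lower, against 1.61%. In Cd8-silent cells without early markers 6 of 7 were higher, against 9.61%. In cycling Cd8-on Rag-silent cells 3 of 5 were higher (Notch1, Dtx1 and Myl10), against 7.24%, and 0 were lower, against 2.55%. In noncycling Cd8-on Rag-silent cells 4 of 4 were higher, against 7.54%. In cycling Cd8-on Rag-on cells 5 of 9 were higher (Notch1, Notch3, Hes1, Dtx1 and Nrarp), against 4.52%. In resting Cd8-on Rag-on cells 5 of 7 were higher (Notch1, Notch3, Dtx1, Ptcra and Myl10), against 5.44%. In post-selection cells, where 3 had enough UMIs, 1 was higher (Dtx1), against 5.06%, and its interval of -0.27 to 2.77 took in 0. In mature cells 3 of 8 were higher (Dtx1, Ptcra and Myl10), against 5.15%. In other-lineage cells 5 of 7 were higher, against 7.13%, and 0 were lower, against 2.79%. The interval of the log2 ratio lay above 0 for 5 of the 6 called in Cd8-silent cells without early markers, 3 of the 4 in noncycling Cd8-on Rag-silent cells and 4 of the 5 in other-lineage cells. In none of these stages was a member at least 2-fold lower, where between 1.22% and 3.27% of all genes were. A gene counted only through the library where it was high could pass the limit of 20 UMIs, so these counts describe the stages and are not a test.

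**Figure D3:**
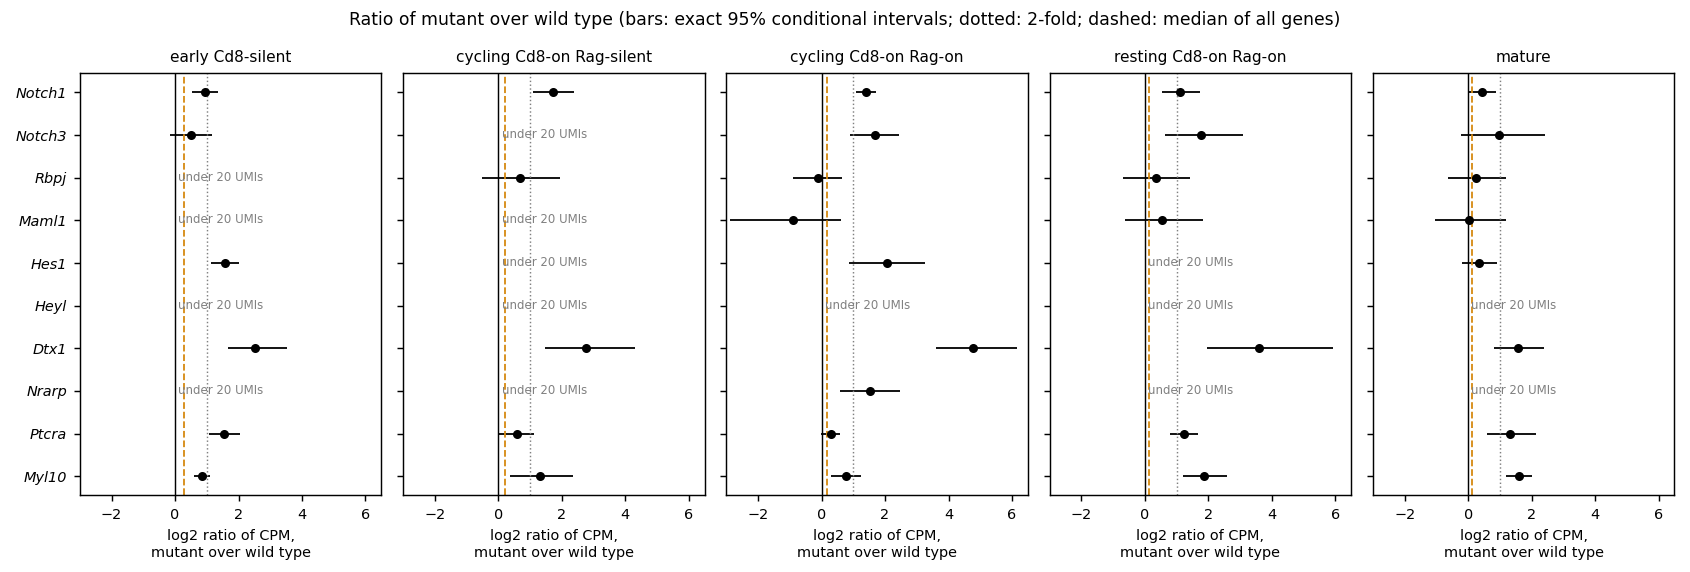
Log2 ratio of mutant over wild type (x axis) for each gene (rows) in 5 stages, with exact 95% conditional intervals, a dotted line at 2-fold and a dashed line at the median of all genes. Dtx1 lay past 2-fold in all 5 panels and Rbpj in none, and genes under 20 UMIs in a stage have no point.

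The libraries were shallow per cell, so shares of cells with a UMI were taken after each cell was thinned to 1500 UMIs, which left out 97 mutant cells and 0 wild type cells. The same share in mature and other-lineage cells is given for comparison. These stages also held cells with early RNA, described below, so they are not a background free of target RNA. Median depths before thinning were 1869 UMIs in mutant and 2133 in wild type resting Cd8-on Rag-on cells, 3289.5 and 3061 in mature cells and 4765.5 and 4421 in other-lineage cells. A Hes1 UMI was seen in 56.7% of mutant early cells (47.3 to 65.7) and 39.5% of wild type early cells (24.98 to 55.59). In resting Cd8-on Rag-on cells the share was 1.23% in mutant (4 of 326 cells) and 0 of 245 cells in wild type, with an exact upper limit of 1.49% on cells with a UMI. Mutant mature cells had 5.61% and mutant other-lineage cells 10.5%, so the Hes1 share of mutant resting cells did not lie above theirs. Whether the Hes1 UMIs of resting cells are background was not tested. Without thinning, 1.90% of mutant resting cells and 0% of wild type resting cells had a Hes1 UMI.

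For Ptcra the resting share lay above that of mature cells in both libraries, and above that of other-lineage cells in mutant. A Ptcra UMI was seen in 25.2% of mutant resting Cd8-on Rag-on cells (20.5 to 30.2) and 13.5% of wild type ones (9.46 to 18.4). In mature cells the share was 6.28% in mutant and 2.51% in wild type, and in other-lineage cells 1.97% in mutant (0.41 to 5.66) and 5.17% in wild type (3 of 58 cells, 1.08 to 14.4). The wild type other-lineage interval overlaps that of wild type resting cells. Without thinning, the resting shares were 33.9% in mutant and 49 of 245 cells in wild type.

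For Dtx1 the mutant shares did not differ in this way. The share of cells with a Dtx1 UMI was 8.90% in mutant resting Cd8-on Rag-on cells (6.04 to 12.5) and 0.82% in wild type ones (0.10 to 2.92). Mutant mature cells had 8.07% and mutant other-lineage cells 9.21%, against 3.02% in wild type mature and 1.72% in wild type other-lineage cells. The interval of the mutant resting share thus took in the shares of mutant mature and other-lineage cells. Mutant early cells had 40.8%, and the other mutant stages lay between 5.34% and 9.21%. Without thinning the resting shares were 11.1% in mutant and 1.22% in wild type. The part of RNA free in droplets in the mutant Dtx1 level was not tested.

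The receptors were set against the same stages. A Notch1 UMI was seen in 13.2% of mutant resting Cd8-on Rag-on cells (9.71 to 17.4) and 8.57% of wild type ones (5.38 to 12.8), and without thinning in 18.4% in mutant and 12.2% in wild type. Mature cells had 10.5% in mutant and 8.04% in wild type, and other-lineage cells 13.2% in mutant and 5.17% in wild type, with overlapping intervals within each library. A Notch3 UMI was seen in 5.83% of mutant resting cells (3.55 to 8.95) and 2.04% of wild type ones, against 2.69% of mutant mature cells (1.40 to 4.65) and 1.51% of wild type mature cells, and without thinning in 8.40% of mutant and 2.86% of wild type resting cells. For Notch3 the other-lineage share was 1.32% in mutant (0.16 to 4.67) and 0 of 58 cells in wild type. By these shares the intervals of resting cells overlapped those of mature and other-lineage cells for both receptors in each library. The levels given below, with early-marker cells set aside, differ from this reading: both receptors stood higher in mutant resting than in mutant mature cells.

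Part of the target RNA in mature and other-lineage cells came from cells that also carried early RNA. An early-marker UMI was present in 74 of 458 mutant mature cells and 14 of 199 wild type mature cells, and in 68 of 154 mutant and 11 of 58 wild type other-lineage cells. In mature cells with such a UMI Hes1 was at 234 CPM in mutant and 243 CPM in wild type. In mature cells without it Hes1 was at 11.3 CPM in mutant and 7.70 CPM in wild type. Dtx1 in mature cells without it remained at 57.4 CPM in mutant (45.6 to 71.4) and 26.2 CPM in wild type (15.2 to 41.9).

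Setting early-marker cells aside in both stages places the Cd8-on Rag-on level against mature cells of the same library. This step was not planned beforehand. Ptcra was at 223 CPM in mutant and 95.6 CPM in wild type resting Cd8-on Rag-on cells, above 31.9 CPM in mutant and 15.4 CPM in wild type mature cells. Notch1 was at 114 CPM in mutant resting cells (90.01 to 141), above 56.0 CPM in mutant mature cells (44.3 to 69.8). In wild type it was at 55.6 CPM in resting cells and 57.0 CPM in mature cells, with overlapping intervals. Notch3 was at 36.9 CPM in mutant resting cells (24.1 to 54.1), above 4.25 CPM in mutant mature cells (1.56 to 9.26). In wild type Notch3 was at 13.9 CPM in resting cells (8 UMIs) and 4.62 CPM in mature cells (3 UMIs), with overlapping intervals. Myl10 was at 111 CPM in mutant resting cells (87.5 to 138), above 35.5 CPM in mutant mature cells (26.3 to 46.7), while in wild type 40.0 CPM in resting and 21.6 CPM in mature cells overlapped. Dtx1 in mutant was at 58.2 CPM in resting and 57.4 CPM in mature cells, and in wild type it was lower in resting cells, at 5.21 CPM (3 UMIs), than in mature cells, at intervals of 1.07 to 15.2 CPM and 15.2 to 41.9 CPM that all but met.

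**Figure D4:**
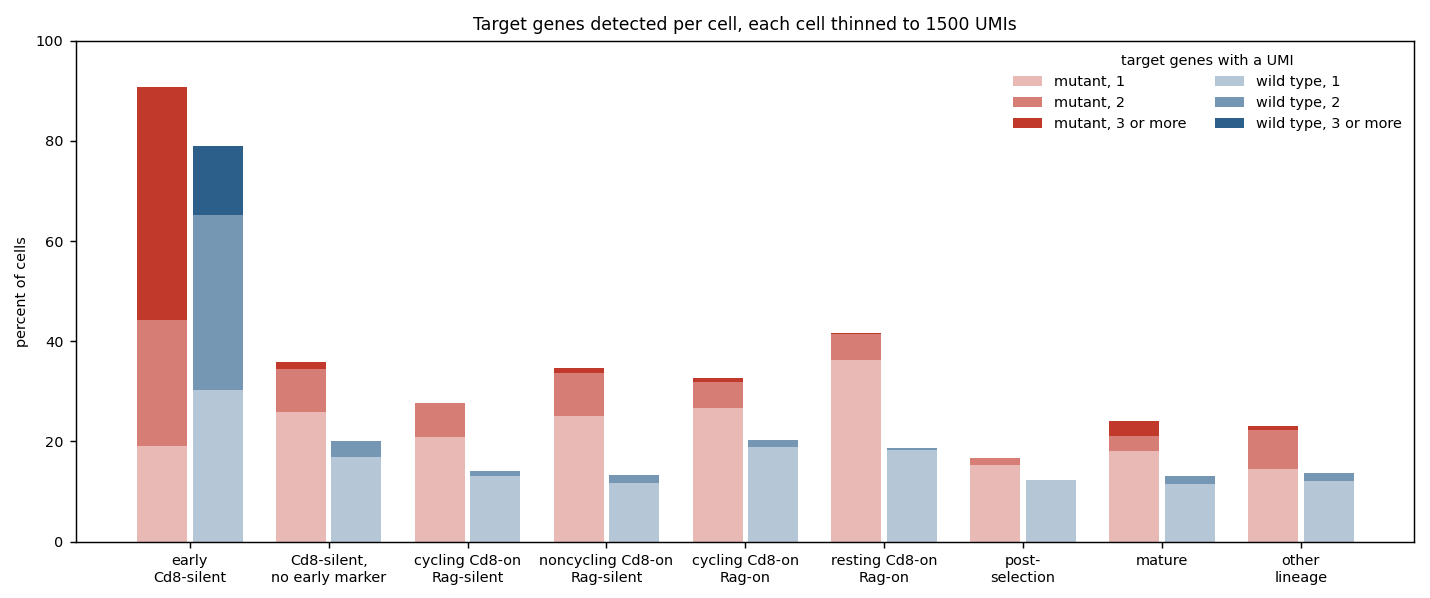
Percent of cells (y axis) with a UMI of 1, 2 or at least 3 of the 6 target genes after thinning each cell to 1500 UMIs, by stage (x axis), mutant bars in red left of wild type bars in blue. Cells with 3 or more targets made up 46.7% of mutant early cells and 6 of 43 wild type early cells, and at most 0.86% of Cd8-on Rag-on cells of either kind and library.

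Within single cells, the share with at least 3 targets was highest in the early stage. After thinning, 46.7% of mutant early cells (37.5 to 56.0) and 6 of 43 wild type early cells had a UMI of at least 3 of the 6 targets, and 9.17% in mutant and 20.9% in wild type had none. Among resting Cd8-on Rag-on cells 58.3% in mutant and 81.2% in wild type had none, and 36.2% in mutant and 18.4% in wild type had exactly 1. Before thinning, at least 3 targets were seen in 62.8% of mutant and 39.5% of wild type early cells. In cycling Cd8-on Rag-on cells, with median depths of 6537.5 UMIs in mutant and 6033 in wild type, this was 15.5% in mutant and 1.62% in wild type. Of the cells with at least 3 targets before thinning, 76 of 184 in mutant and 17 of 32 in wild type were early cells. Mature cells were 34 of these in mutant and 2 in wild type. Also before thinning, Hes1 and Dtx1 were seen together in 47 of 121 mutant early cells and 7 of 43 wild type early cells. Dtx1 and Ptcra were seen together in 25 of 116 mutant and 4 of 433 wild type cycling Cd8-on Rag-on cells, and in 12 of 369 mutant and 0 of 245 wild type resting cells.

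Markers of other cell types were present at differing levels where the targets were read. The first gate set aside every cell with at least 5 UMIs of these markers together. Their sums here are therefore limited by the gate and do not show that other cell types are absent. In resting Cd8-on Rag-on cells the 5 macrophage markers summed to 7 UMIs in mutant and 4 in wild type, with Adgre1 at 0 in both. The 5 B and antigen-presenting markers summed to 65 UMIs in mutant and 35 in wild type there, with Cd79a and Ms4a1 at 0 in both. The 7 stromal markers summed to 125 CPM in mutant and 160 CPM in wild type resting cells, mostly Pecam1, a gene of endothelial and some blood cells, at 95.5 CPM in mutant and 149 CPM in wild type, with Krt5 and Col1a1 at 0 in both. The 5 innate-like T and NK markers summed to 8 UMIs in mutant and 21 in wild type there. In early cells the macrophage markers summed to 13 UMIs in mutant and 1 in wild type, with C1qa, C1qb and Adgre1 at 0 in both. The 5 innate-like T and NK markers summed to 75.9 CPM in mutant and 58.7 CPM in wild type early cells, and the 7 stromal markers to 132 CPM in mutant and 92.2 CPM in wild type. Their part in the ratios of the NOTCH genes was not tested.

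The rest of the pathway was counted in the same way over all cells. Of 51 further genes, 39 had at least 20 UMIs, 3 of them were at least 2-fold higher in mutant and 0 at least 2-fold lower, and their median log2 ratio was 0.19. Over all genes 6.19% were higher and 1.78% lower, with a median of 0.13, so this count is near that of all genes. The 3 were Il2ra, the interleukin receptor chain of early cells, at 137 CPM in mutant and 23.8 CPM in wild type, Lef1, a TCF family factor, at 470 CPM in mutant and 195 CPM in wild type, and Lfng, a fringe enzyme that tunes ligand choice, at 53.3 CPM in mutant and 24.8 CPM in wild type. The lowest ratios were those of Myc, at -0.96 (-1.25 to -0.67), Nedd4, a ubiquitin ligase, at -0.70 (-0.94 to -0.45), and Tcf7, another TCF family factor, at -0.27 (-0.33 to -0.22). Il2ra is one of the early gate's own markers, so its stage levels are part of how the stage was set.

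By role, the ligand genes Dll1, Dll3, Dll4, Jag1 and Jag2 held from 0 to 3 UMIs per library. Of the 8 cleavage genes 0 passed 2-fold in either direction, and Psen2, a catalytic subunit of gamma-secretase, came closest at a log2 ratio of 0.99 (0.41 to 1.59). Of the 9 nuclear partners with enough UMIs 0 passed 2-fold, with a median log2 ratio of 0.16. Hes6, a HES gene not tied to NOTCH in the same way as Hes1, was at 91.8 CPM in mutant and 89.2 CPM in wild type.

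**Figure D5:**
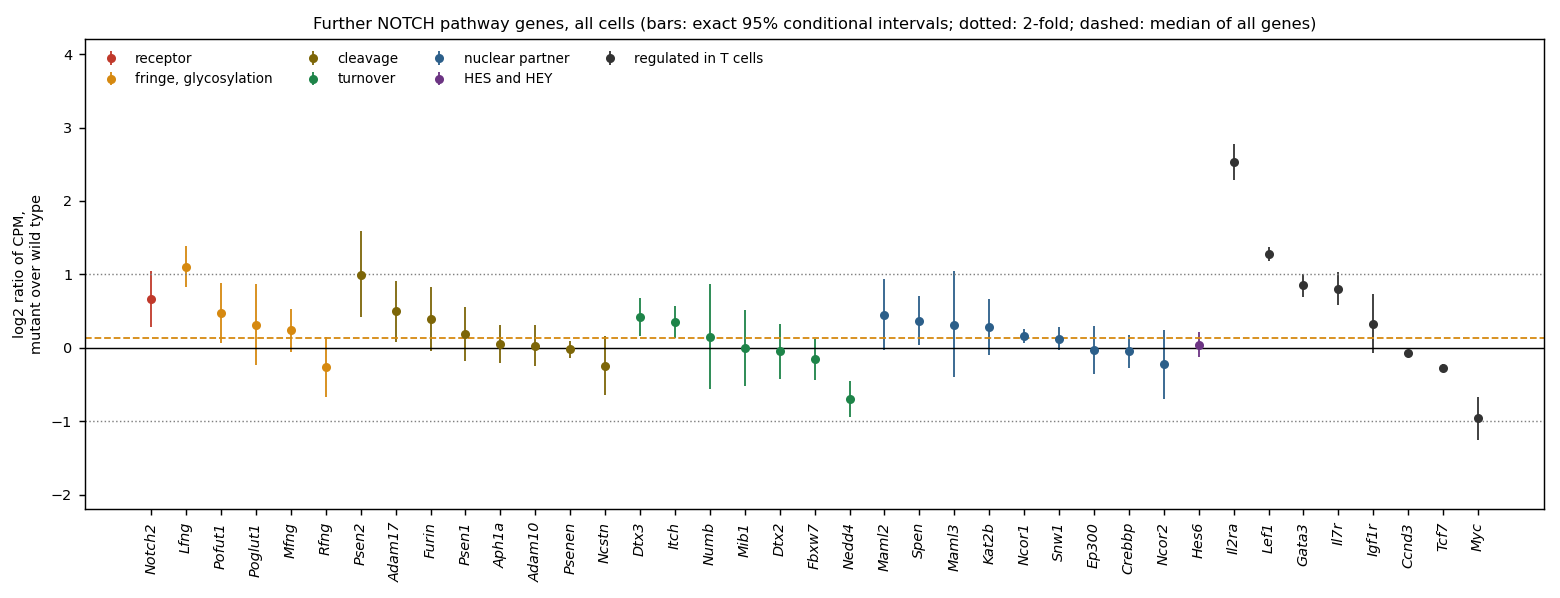
Log2 ratio of mutant over wild type over all cells (y axis) for the 39 further pathway genes with at least 20 UMIs (x axis), coloured by role, with exact 95% conditional intervals, dotted lines at 2-fold and a dashed line at the median of all genes. Il2ra, Lef1 and Lfng lay above the upper dotted line and Myc was the lowest gene at -0.96.

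By stage the counts were as follows. In early cells 4 of 21 were at least 2-fold higher in mutant and 1 lower, against 12.8% and 1.61% of all genes. Hes6 was at 122 CPM in mutant and 29.4 CPM in wild type, Lef1 at 549 CPM in mutant and 134 CPM in wild type, and Il7r, a cytokine receptor chain, at 115 CPM in mutant and 46.1 CPM in wild type, with Il2ra, the marker behind most of the gate, the fourth. Myc was the lower one, at 22.0 CPM in mutant (9 UMIs) and 143 CPM in wild type (34 UMIs). Over Cd8-on Rag-on cells together, 3 of 37 were higher and 2 lower, against 6.48% and 2.38% of all genes. The higher ones were Psen2, Il2ra and Lef1, and the lower ones Nedd4 and Myc. This sum mixes cycling and resting cells in shares that differ between the libraries. Psen2 is a cleavage gene, and in the cycling or the resting stage alone 0 of 7 cleavage genes with at least 20 UMIs passed 2-fold. Lef1 was at 397 CPM in mutant and 123 CPM in wild type, and Myc was at 9.45 CPM in mutant and 36.6 CPM in wild type.

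Across the 18 sums of stage and library, which share libraries and cell totals, the receptors ran most alike, with a Pearson r of 0.90 between Notch1 and Notch3 on log2(CPM + 5). Hes1 ran with Myl10 at 0.85 and with Dtx1 at 0.68. Among 4759 other genes, Hes1 was most like Cdk6 (r = 0.92) and Zcchc2 (0.90), and Ptcra most like Nr3c1 (0.95), the glucocorticoid receptor gene, and Fkbp5 (0.92). Dtx1 was most like Akr1c13 (0.86) and the interferon-inducible Ifi203 (0.82), Nrarp like Vrk1 (0.87) and Hist1h3c (0.85), and Notch3 like Rras2 (0.88) and Runx1 (0.86). Both libraries enter each r, so a difference between libraries that genes share counts as well as their course over stages. Dtx1 stood higher in mutant in every stage, and these parts of its r were not separated. These values describe 2 libraries and carry no test.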

How the data were processed

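Per the labels' protocols, 5000 thymocytes per sample were loaded on a 10x Chromium instrument (3′ v2 chemistry) and sequenced on a HiSeq. The authors deposited UMI counts, not normalized, with a row for each cell and a column for each gene symbol. The submitters' processing notes name Cell Ranger and mm10. Versions and the rule for calling barcodes are not given in the sources used here. Lowest totals were 1416 UMIs in mutant and 1781 in wild type, so the lower limit differed. No cell annotation was used. The list of maturation markers is given in part, since 1 of its genes is not reported here.

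Barcodes with at least 400 genes and at most 10% mitochondrial UMIs were kept, leaving out 6 mutant and 5 wild type barcodes. Scrublet in scanpy 1.11.5, at an expected rate of 4%, called 5 mutant and 3 wild type doublets, or 0.259% of barcodes, which were removed. The rate called was far below the expected 4%. Whether the caller missed doublets was not tested, so doublets may remain, and an alternative left out the 5% with the highest scores. In all 3064 of 3083 cells remained.

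UMIs were summed per library and stage and divided by that stage's total (CPM), with exact Poisson intervals for levels, exact conditional intervals for ratios and exact Clopper-Pearson intervals for shares (scipy 1.17.1, numpy 2.4.6). Genes were counted as past 2-fold at a log2 ratio of at least 1 with at least 20 UMIs in both libraries together. For 0 UMIs the ratio is against a floor of 3 UMIs in that library and stage. UMIs collapse amplified copies, but intervals cover counting error only. All 10 genes were read in every stage, but not every stage value is printed. Of 51 further pathway genes, the 3 highest and 3 lowest log2 ratios over all cells are named, and Psen2, Hes6, Il7r and the stage values were added after their values were seen. Likeness used genes with at least 50 CPM in 1 sum and 100 UMIs in all. Replicates do not exist, so no model was fitted. The code was tested on simulated counts. The genes, lists and gates were chosen with earlier results of these data known. Matplotlib 3.10.9 and Python 3.11.15 were used.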

Additional observations from a re-analysis of the deposited data

How the results depend on the processing

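No paired analysis was possible because each genotype has 1 library. The 26 log2 ratios of at least 1 were recomputed under alternative settings, which gave 329 values. They covered all cells, the early, cycling Rag-silent, cycling Rag-on and resting Rag-on stages and the Cd8-on Rag-on cells together. A ratio was left out of a setting where its gene had under 20 UMIs. Of these values 322 stayed at or above 1 and all 329 above 0, the lowest being 0.44. That was Myl10 in cycling Cd8-on Rag-silent cells with raised gate thresholds, and the other 6 under 1 were Notch1 in Cd8-on Rag-on cells, between 0.82 and 0.996. With raised gate thresholds 5 genes instead of 3 were at least 2-fold higher in early cells. With each cell thinned to 1500 UMIs before gating, the counts at least 2-fold higher were 1 in cycling Cd8-on Rag-silent cells instead of 3, 1 in cycling Cd8-on Rag-on cells instead of 5 and 3 in resting Cd8-on Rag-on cells instead of 5. Thinning leaves fewer genes with 20 UMIs. Ptcra over Cd8-on Rag-on cells together had a log2 ratio of 0.64 as reported, 0.86 with thinning and 0.94 as a mean over cells. Nrarp over all cells, 0.57 as reported with an interval across 0, was -0.41 with thinning. The cause of these shifts was not tested.

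Placing the early gate ahead of the mature gate, chosen after seeing the data, put 183 mutant and 54 wild type cells in the early stage, with Hes1 at 517 CPM in mutant and 242 CPM in wild type (log2 ratio 1.09) and Dtx1 at 207 CPM in mutant and 37.7 CPM in wild type (2.46). Mature cells then held Hes1 at 15.8 CPM in mutant and 23.9 CPM in wild type, a log2 ratio of -0.60 (-1.56 to 0.38). Depth limits Heyl, Nrarp and Maml1 in most stages.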
